A study of Homo sapiens with 17 samples.

Results

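The comparison is between the places that tagged H2A.Z.2 and tagged H2A.Z.1 occupied in the genome of postconfluent Caco-2/15 cells. Its members are 4 lists of Flag ChIP-seq peaks, 2 for each isoform (Exp1 and Exp2), chosen by the labels' genotype and growth state. They are 4 of the 8 peak lists and 4 of the 17 samples named in the series. Caco-2/15 derives from a human colorectal tumour, and its cells differentiate towards enterocytes once they are confluent. The H2A.Z.1 cells carried a heterozygous Flag tag on H2AFZ (now H2AZ1) and the H2A.Z.2 cells a heterozygous Flag tag on H2AFV (now H2AZ2). Both tags were introduced by CRISPR-Cas9, and the untagged allele of each gene was still present. All 4 samples were taken at 7 days after confluence. Chromatin was precipitated with 4 µg of Flag M2 antibody. Also added were 10 ng of chromatin from a spike-in and 1 µg of antibody against it. Subconfluent cultures of the same tagged cells gave the other 4 lists, which are used here for the spread between lists and for the test of growth state. The labels do not say whether a tagged line is 1 clone, and each isoform was tagged in its own cells, so isoform and edited line cannot be told apart.

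H2A.Z is a variant of histone H2A that replaces it in a share of nucleosomes, most of all in those on either side of the start of transcription and at enhancers. Vertebrates have separate genes for H2A.Z.1 and H2A.Z.2, whose proteins differ at a few residues, and no antibody in common use tells them apart, which is what an isoform-specific tag is for. Nucleosomes with H2A.Z are placed by the SRCAP and EP400 complexes, and H2A.Z is removed by the INO80 complex and the chaperone ANP32E.

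The 6 promoters below are printed because the largest isoform differences, or the clearest examples of their limits, lay at these genes. Each runs from 250 bases before to 50 bases after the RefSeq start of the gene on GRCh38.p14, 5′ to 3′ on the gene's strand, and capitals mark CpG dinucleotides. GLCCI1, a gene first known from its induction by glucocorticoids, is at chr7:7968546-7968845 (+ strand). ARFIP1, which encodes a Golgi protein that binds ARF and ARL GTPases, is at chr4:152779704-152780003 (+ strand). SLC19A2, a thiamine transporter gene, is at chr1:169485921-169486220 (− strand). PCNP, which encodes a nuclear protein, is at chr3:101573930-101574229 (+ strand). EBP, the sterol isomerase of cholesterol synthesis, is at chrX:48521558-48521857 (+ strand). RPL14, a protein of the large ribosomal subunit, is at chr3:40457089-40457388 (+ strand).
GLCCI1: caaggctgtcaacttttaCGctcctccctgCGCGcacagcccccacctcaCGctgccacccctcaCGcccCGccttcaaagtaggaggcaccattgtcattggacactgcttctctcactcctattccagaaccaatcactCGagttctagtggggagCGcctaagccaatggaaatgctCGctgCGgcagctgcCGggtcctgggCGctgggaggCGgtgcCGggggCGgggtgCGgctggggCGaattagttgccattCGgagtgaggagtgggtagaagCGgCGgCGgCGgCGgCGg
ARFIP1: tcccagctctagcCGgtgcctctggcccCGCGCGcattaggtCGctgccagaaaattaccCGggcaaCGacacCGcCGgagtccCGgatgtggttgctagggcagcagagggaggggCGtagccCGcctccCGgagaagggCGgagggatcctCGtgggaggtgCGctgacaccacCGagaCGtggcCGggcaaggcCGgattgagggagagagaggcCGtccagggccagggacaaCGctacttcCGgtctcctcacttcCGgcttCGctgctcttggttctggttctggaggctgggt
SLC19A2: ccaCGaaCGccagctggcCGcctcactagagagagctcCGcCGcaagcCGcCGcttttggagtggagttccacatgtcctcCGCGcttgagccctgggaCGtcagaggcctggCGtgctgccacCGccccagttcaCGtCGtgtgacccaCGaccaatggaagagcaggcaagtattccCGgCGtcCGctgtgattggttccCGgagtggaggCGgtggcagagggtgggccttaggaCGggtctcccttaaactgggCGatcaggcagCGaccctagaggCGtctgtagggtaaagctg
PCNP: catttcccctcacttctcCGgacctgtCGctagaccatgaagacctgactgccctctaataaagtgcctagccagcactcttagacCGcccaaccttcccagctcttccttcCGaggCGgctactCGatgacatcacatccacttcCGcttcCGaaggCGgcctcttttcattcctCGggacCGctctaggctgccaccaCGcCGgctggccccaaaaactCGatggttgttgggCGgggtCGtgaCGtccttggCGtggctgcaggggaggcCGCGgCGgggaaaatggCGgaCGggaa
EBP: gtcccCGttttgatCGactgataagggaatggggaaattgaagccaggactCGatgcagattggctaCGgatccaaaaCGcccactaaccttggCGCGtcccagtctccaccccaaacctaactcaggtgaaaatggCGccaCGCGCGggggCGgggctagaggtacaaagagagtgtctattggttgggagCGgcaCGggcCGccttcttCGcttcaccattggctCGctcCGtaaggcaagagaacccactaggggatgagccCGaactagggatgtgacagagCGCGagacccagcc
RPL14: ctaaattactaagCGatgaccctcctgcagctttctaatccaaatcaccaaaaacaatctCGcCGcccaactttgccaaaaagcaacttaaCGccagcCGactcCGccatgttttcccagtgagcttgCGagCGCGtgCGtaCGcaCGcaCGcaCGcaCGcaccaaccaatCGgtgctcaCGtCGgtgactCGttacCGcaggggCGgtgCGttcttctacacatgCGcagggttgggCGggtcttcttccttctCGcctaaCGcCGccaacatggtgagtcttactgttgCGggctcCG

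These promoters hold 21 (EBP) to 29 (RPL14) CpG dinucleotides in 300 bases, against a median of 22 over the 15841 genes with a promoter sequence. The median was 27 over the 9192 such genes with an interval in all 4 postconfluent lists and 6 over the 5540 with none. A GC box (the letters GGGCGG on either strand) stands in all 6 and in 58.5% of all 15841 promoters. The letters CCAAT on either strand stand in those of GLCCI1, SLC19A2, EBP and RPL14 and in 36.4% of all promoters. A match of letters is a description of the sequence and not a binding site.

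The deposited H2A.Z.1 lists held 56427 (Exp1) and 79425 (Exp2) intervals and the H2A.Z.2 lists 39086 and 51348, so the longest was 2.03 times the shortest. The number of reads behind a list is unknown. Interval names gave 3 sequencing runs. The H2A.Z.1 Exp1 list came from one run, the H2A.Z.2 Exp1 list from another and both Exp2 lists from the third. In Exp1, isoform and run therefore cannot be told apart, and Exp2 compares the isoforms within 1 run. Each list was reduced to the 30603 intervals with the highest −log10 p, which is as many as the shortest of all 8 lists holds. The weakest interval kept had a −log10 p of 13.7 and 16.8 in the H2A.Z.1 lists and 10.0 and 11.6 in the H2A.Z.2 lists. A percentile below is the rank of an interval's fold enrichment within its own cut list. Nothing in the labels says that Exp1 and Exp2 were separate cultures, so the p-values measure only the spread between these samples. Occupancy of marker genes of intestinal epithelium was mixed: HNF4A and CDH1 had an interval in all 4 lists, VIL1 and EPCAM in some, and CDX2 and CDH17 in none. Occupancy by H2A.Z is not expression, so this neither checks nor contradicts the cell type.

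Most places were shared by the isoforms. Of 38991 regions with an interval in any of the 4 cut lists, 19744 (50.6%) were in all 4 and 27549 (70.7%) were in at least 1 list of each isoform. Regions in both H2A.Z.2 lists and neither H2A.Z.1 list numbered 319 (0.818% of the 38991). Regions in both H2A.Z.1 lists and neither H2A.Z.2 list numbered 1085 (2.78%). With 2 lists against 2 no permutation test can go below p = 0.333, so these counts carry no test.

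Overlap between lists was no higher within an isoform than between isoforms. The Jaccard index of covered bases was 0.661 for the 2 H2A.Z.1 lists and 0.626 for the 2 H2A.Z.2 lists. Between isoforms it was 0.608 to 0.661 over the 4 pairs. The Spearman correlation of fold enrichment over the 19744 shared regions was 0.729 within H2A.Z.1 and 0.759 within H2A.Z.2, and 0.730 to 0.807 between isoforms. These correlations are across regions of paired lists, which share the genome and the antibody, and they are given as a description.

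The regions of 1 isoform were weak ones. The median of their mean percentile was 23.4 for the 319 H2A.Z.2 regions and 22.1 for the 1085 H2A.Z.1 regions, against 64.9 for the 19744 shared regions. The strongest reached a mean percentile of 63.0 in H2A.Z.2 and 67.5 in H2A.Z.1. Median widths of the merged regions were 595 and 702 bp against 1379 bp. Within 1 kb of a gene position lay 22.9% of the H2A.Z.2 regions and 12.3% of the H2A.Z.1 regions, against 56.0% of the shared regions. Between genes lay 43.6% and 56.6%, against 25.9%.

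A region missing from the cut lists of the other isoform was usually present below the cut. The whole H2A.Z.1 lists held 313 of the 319 H2A.Z.2 regions, 270 of them in both lists. The whole H2A.Z.2 lists, which are the shorter ones, held 806 of the 1085 H2A.Z.1 regions, 350 of them in both. This left 6 H2A.Z.2 regions and 279 H2A.Z.1 regions with no interval at all in the lists of the other isoform. In the cut subconfluent lists, the other isoform had an interval at 178 (55.8%) of the H2A.Z.2 regions and 555 (51.2%) of the H2A.Z.1 regions. The same isoform pattern was present before confluence at 7 and 46 regions and the opposite pattern at 12 and 22.

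The order of these counts changed with the length of the lists. H2A.Z.1 regions outnumbered H2A.Z.2 regions by 6976 to 87 in whole lists, by 1641 to 454 when the 4 lists were cut to 39086 intervals, and by 403 to 225 at 15301 intervals. When every list was instead cut to the same covered length, 18.5 Mb, H2A.Z.2 regions outnumbered H2A.Z.1 regions by 778 to 116. At that covered length, the H2A.Z.1 lists held 14762 and 14209 intervals and the H2A.Z.2 lists 18030 and 17823.

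**Figure D1:**
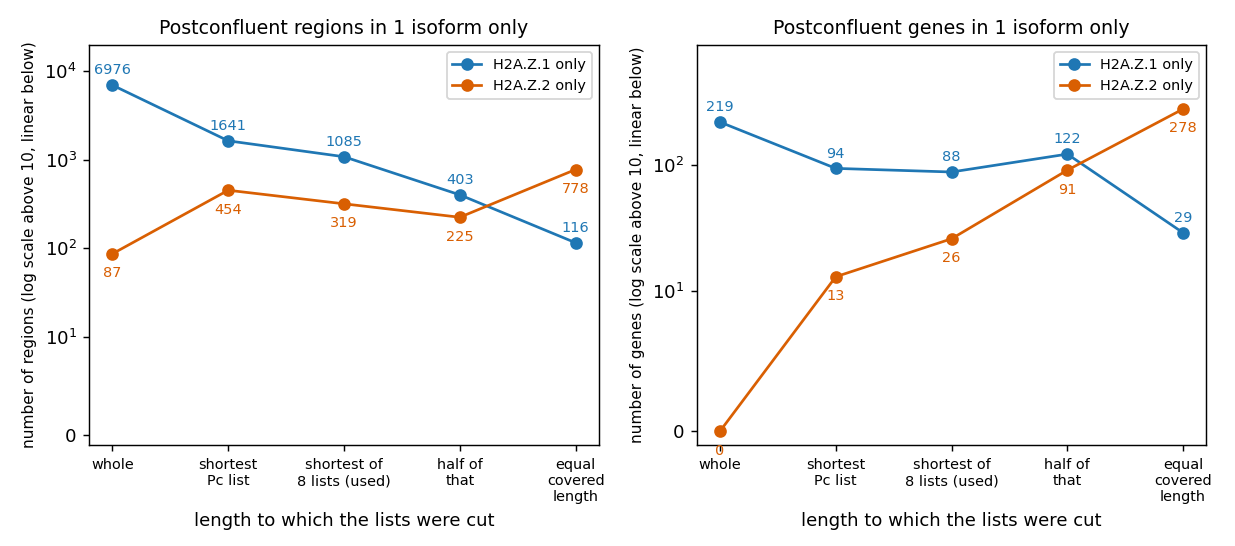
Number of regions (left) and genes (right) present in both postconfluent lists of 1 isoform and neither list of the other (y axis, log scale above 10 and linear below), against the length to which the lists were cut (x axis); each point is 1 count. H2A.Z.1-only regions go from 6976 in whole lists to 116 at equal covered length while H2A.Z.2-only regions go from 87 to 778, so the lines cross, and so do those of genes.

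At genes the sharing was nearly complete. Of 20033 protein-coding genes, 12689 had an interval within 1 kb of the gene position in at least 1 cut list, and 11205 of these (88.3%) had one in all 4. Each H2A.Z.1 list reached 12002 and 12128 genes and each H2A.Z.2 list 11794 and 11986. An interval in both H2A.Z.2 lists and neither H2A.Z.1 list was found at 26 genes (0.205% of the 12689), and the reverse at 88 genes (0.694%).

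The 10 H2A.Z.2-only genes of highest percentile were LINC02210-CRHR1, EBP, FRRS1, MROH6 with NAPRT, GPR3, AKIRIN1, GRHL3, FOXD3 and VASN. The intervals at LINC02210-CRHR1 stood at percentiles 78.5 (Exp1) and 47.6 (Exp2). Those at EBP stood at 64.1 and 49.8, and those at FRRS1, a ferric reductase gene, at 78.5 and 31.1. The receptor gene GPR3 had 46.1 and 56.4, and the interval shared by MROH6 and NAPRT 42.5 and 62.0. The transcription factor genes GRHL3, of epithelial differentiation, and FOXD3, of the neural crest, had 49.8 and 31.5, and 33.8 and 43.7. In whole lists none of the 26 genes was H2A.Z.2-only: 21 had an interval in both whole H2A.Z.1 lists and 5 in 1 of them. EBP, whose promoter is printed above, had a whole-list interval in both H2A.Z.1 lists, and a cut-list interval in 1 of 2 H2A.Z.1 lists and both H2A.Z.2 lists before confluence.

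The 10 H2A.Z.1-only genes of highest percentile were TNNI3, PLCB2, ADCY4, SUMO3, IFI27L2, TEX15, RPL14, FAM86B1, NCOR1 and CC2D2A. The first 3 were also the sole genes of either isoform to keep the pattern in whole lists, at 15301 intervals and at equal covered length. Each was a matter of distance. At TNNI3, the cardiac troponin I gene, the nearest H2A.Z.1 intervals lay 948 and 984 bp from the gene position and the nearest H2A.Z.2 intervals 1201 and 1130 bp. At PLCB2, a phospholipase gene, the distances were 980 and 948 bp against 1152 and 1002 bp, and at ADCY4, an adenylyl cyclase gene, 820 and 976 bp against 1898 and 1034 bp. All 3 had H2A.Z.2 intervals once the window was widened to 2 kb, and the region itself was not H2A.Z.1-only.

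The next genes had modest percentiles. SUMO3, a ubiquitin-like modifier gene, had 55.7 and 57.1, RPL14 51.6 and 51.4, and the corepressor gene NCOR1 50.8 and 49.2. Both whole H2A.Z.2 lists held an interval at each of these 3. RPL14 also had an interval in all 4 cut subconfluent lists, at percentiles 40.2 to 46.3.

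Of the 88 genes, 27 had no interval in either whole H2A.Z.2 list. For 20 of these the region was also H2A.Z.1-only and the pattern held in a 2 kb window, and their mean percentiles ran from 6.62 to 50.7. CC2D2A, which encodes a protein of the ciliary transition zone, was one of them. Its H2A.Z.1 intervals overlapped the start at percentiles 54.5 and 44.0, and the nearest whole-list H2A.Z.2 interval was 9184 bp (Exp1) and 9193 bp (Exp2) away. Before confluence neither cut H2A.Z.2 list had an interval there. Of the cut subconfluent H2A.Z.1 lists, Exp2 had one, at percentile 34.9, and Exp1 had none. FAM86B1 was another, at percentiles 39.8 and 61.7, with nearest H2A.Z.2 intervals 207828 and 207809 bp away. It belongs to a family of near-identical copies, so its intervals are uncertain. TRAM2, at 23.5 and 61.9, was chosen after its values were seen, and its nearest H2A.Z.2 intervals lay 11573 and 11529 bp away. Before confluence, at least 1 cut H2A.Z.2 list had an interval at 11 of the 20 genes and neither cut list had one at the other 9.

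Promoter sequence was available for 18 of the 26 H2A.Z.2-only genes and 61 of the 88 H2A.Z.1-only genes, with median CpG counts of 26 and 21 per 300 bases. The letters CCAAT stood in 12 of the 18 (66.7%) and 14 of the 61, against 36.4% of all promoters. The AP-1 letters TGANTCA stood in 4 of the 18 (22.2%) and 8 of the 61 (13.1%), against 5.75% of all. The GC box stood in 77.8% and 62.3%, against 58.5% of all. The E-box letters CACGTG stood in 5.56% and 13.1%, against 8.88%, and the TATA box letters TATAAA in 0% and 8.2%, against 9.63%. Over the genes with an interval in all 4 lists, the shares were 36.5% for CCAAT, 3.8% for AP-1 and 74.2% for the GC box. There they were 10.8% for the E-box and 4.61% for the TATA box. All these motifs were searched on both strands. The genes were few and chosen with these lists, so no test was made.

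H2A.Z.2 intervals were narrower than H2A.Z.1 intervals in lists of equal number. Median widths were 816 bp (Exp1) and 873 bp (Exp2) for H2A.Z.1 and 666 and 670 bp for H2A.Z.2, which is 844.5 ± 40.3 against 668 ± 2.83 bp (SD, n = 2 each). The groups did not overlap, and the difference of −176.5 bp was larger than the spread within either isoform. The cut H2A.Z.1 lists covered 29.0 and 30.4 Mb and the cut H2A.Z.2 lists 24.6 and 24.7 Mb. Broad intervals of 3 kb or more numbered 151 and 215 for H2A.Z.1 and 61 and 111 for H2A.Z.2. In whole lists the direction was the opposite, with median widths of 502 and 390 bp for H2A.Z.1 and 545 and 419 bp for H2A.Z.2. Before confluence the cut lists overlapped, at 746 and 664 bp for H2A.Z.1 and 780 and 474 bp for H2A.Z.2. Over both states, 4 lists of each isoform, the exact 2-sided permutation test of the difference in median width gave p = 0.20 (adjusted p = 0.25 over 5 list measures), where 0.0286 is the smallest possible.

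Within the 19744 shared regions the same direction was seen between every pair of lists. The median log2 ratio of covered bases, H2A.Z.2 over H2A.Z.1, was −0.12 to −0.14 in the 4 pairs. Between the 2 lists of an isoform it was −0.01 (H2A.Z.1) and −0.02 (H2A.Z.2), Exp2 over Exp1.

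Width was then tested region by region in the lists of 30603 intervals, each list centred on its median over the 16877 regions present in all 8 lists. limma called 0 of the 16877 (0% at an adjusted p of 0.05), 703 (4.17%) had an unadjusted p under 0.05, and the smallest adjusted p was 0.543. The smallest p belonged to a region in ARMC9, which encodes a ciliary protein, with 1479 and 1476 bp covered in the H2A.Z.1 lists and 529 and 498 bp in the H2A.Z.2 lists. In CHAT, the choline acetyltransferase gene, the values were 2122 and 2273 bp against 495 and 386 bp. At RPS15, a protein gene of the small ribosomal subunit, they were 970 and 981 bp against 302 and 294 bp. CFAP221 (1203 and 910 against 341 and 321 bp) and WDR17 (781 and 861 against 287 and 238 bp) completed the 5 narrower regions. Among the 5 wider in H2A.Z.2 were AVPI1, with 486 and 314 bp in the H2A.Z.1 lists and 788 and 760 bp in the H2A.Z.2 lists, and the channel gene ASIC1, with 830 and 858 against 1445 and 1457 bp. MCF2L had 1659 and 1553 bp against 2137 and 2591 bp. The other two lay between genes, at chr16:74991849-74992663 (298 and 203 against 700 and 665 bp) and chr14:101480376-101481783 (612 and 696 against 1213 and 1267 bp). The isoforms did not overlap at any of these 10 regions, and none passed the test.

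The rank of genes by fold enrichment was compared for the 10735 genes with an interval in all 8 lists. Each gene's strongest interval was ranked among these genes within its list, and the rank was expressed as a normal score (standard deviations). limma called 0 of the 10735 genes (0% at an adjusted p of 0.05), and 367 (3.42%) had an unadjusted p under 0.05. The median gene had a standard error of 0.52 on this scale and a 95% interval of ± 1.09, before adjustment over the 10735 genes. Isoform differences smaller than about that could not be seen, and after adjustment larger ones went uncalled too. The highest difference, 2.59 at CHERP, did not pass (limma adjusted p = 0.289). For the 16877 regions in all 8 lists, limma likewise called 0, with 579 (3.43%) at an unadjusted p under 0.05. The test of whether the isoform difference changed with growth state called 0 genes and 0 regions.

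The isoform difference in Exp1 did not recur in Exp2 across genes. The correlation of the differences across the 10735 genes was −0.07, and they had the same sign in 47.5% of genes. Across the 16877 regions the correlation was −0.08, with the same sign in 47.0%. These are correlations across features, which are not independent replicates, between pairs of lists that share none.

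**Figure D2:**
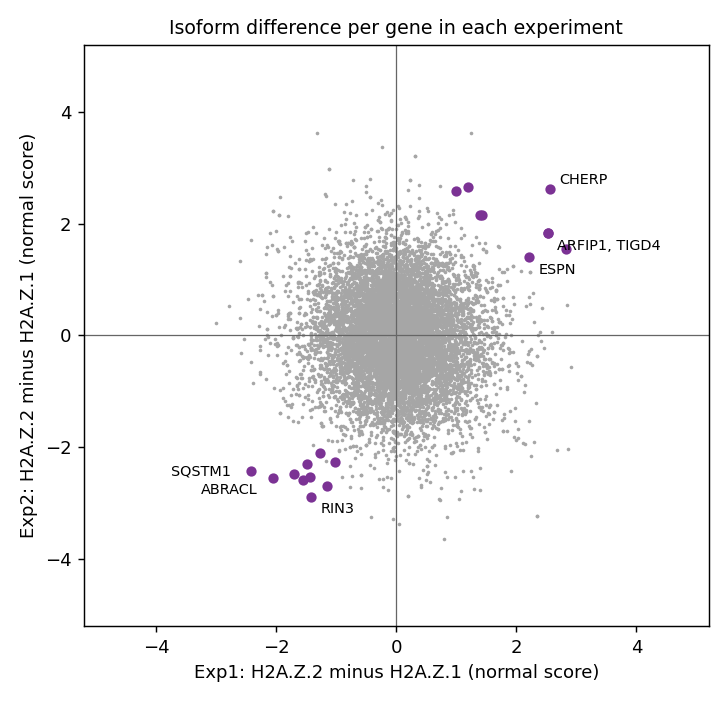
Difference of normal scores, H2A.Z.2 minus H2A.Z.1, in Exp1 (x axis) against Exp2 (y axis), in standard deviations; each of the 10735 points is a gene with an interval in all 8 lists, and purple points are 19 genes among the 10 of smallest limma p in each direction. The cloud has no slope (r = −0.07), and the purple points lie at its edge in the upper right and lower left, where selection by p puts them.

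The genes of smallest p are described here although none passed. CHERP, which encodes an endoplasmic reticulum protein of calcium homeostasis, stood at percentiles 10.0 (Exp1) and 3.52 (Exp2) in the H2A.Z.1 lists and 78.6 and 76.4 in the H2A.Z.2 lists. The difference was 2.59 ± 0.48 (SE; limma adjusted p = 0.289). The 4 subconfluent lists lay between, at 36.8 to 60.2.

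ARFIP1 and TIGD4 share 1 interval, because their starts on opposite strands are 224 bp apart. It stood at 44.6 and 52.6 in the H2A.Z.1 lists and at 94.8 and 91.9 in the H2A.Z.2 lists, a difference of 2.18 ± 0.49 (SE; limma adjusted p = 0.666). All 4 subconfluent lists were at 88.0 to 97.3, beside the H2A.Z.2 values.

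MEX3B, an RNA-binding protein gene, stood at 24.2 and 85.5 against 90.8 and 99.2, with the 2 H2A.Z.1 lists far apart. ESPN, which encodes the actin-bundling protein espin of microvilli, stood at 28.1 and 50.9 against 83.2 and 85.0. PRXL2A, the dehydrogenase subunit gene DLD, CEP68 and MTF2, a Polycomb accessory gene, were also higher in both H2A.Z.2 lists, with differences of 1.78 to 1.92 on the score scale.

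In the other direction, ABRACL stood at percentiles 98.6 and 99.5 in the H2A.Z.1 lists and 72.4 and 73.3 in the H2A.Z.2 lists. The difference was −2.30 ± 0.52 (SE; limma adjusted p = 0.666). SQSTM1, which encodes the autophagy receptor p62, stood at 63.6 and 85.8 against 0.908 and 26.9, a difference of −2.42. PPIC, a cyclophilin gene, stood at 95.6 and 98.6 against 70.5 and 61.6, and RTKN2 at 96.0 and 88.8 against 73.4 and 37.0. C5orf63, FAM168A, RIN3, NXPE3, HAPSTR1 and EFCAB13 differed by −1.64 to −2.15. At all 19 of these genes the lists of one isoform lay wholly above those of the other, which their choice by p favours.

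**Figure D3:**
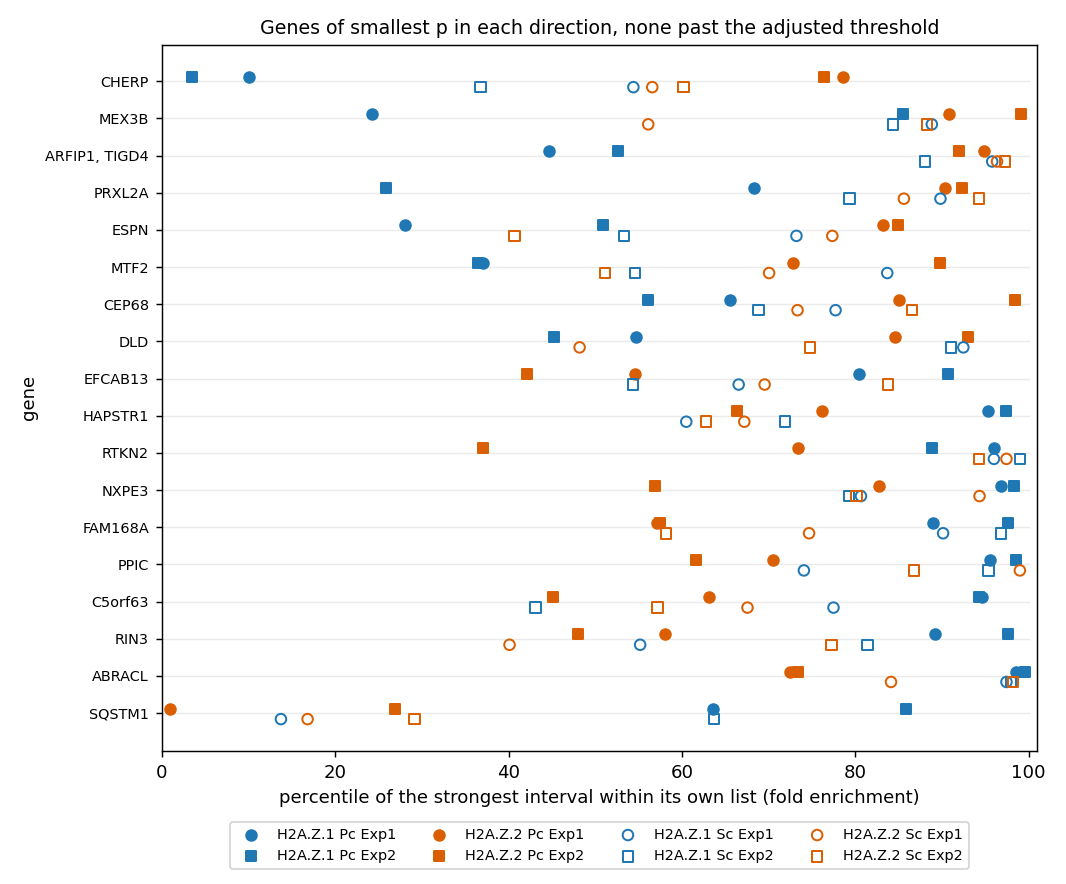
Percentile of the strongest interval within its own list (x axis) for 19 genes among the 10 of smallest limma p in each direction (y axis; ARFIP1 and TIGD4 share an interval); blue is H2A.Z.1, orange H2A.Z.2, filled postconfluent, open subconfluent, circles Exp1 and squares Exp2. The filled blue and orange points are apart in every row, as at CHERP (10.0 and 3.52 against 78.6 and 76.4), and the open points lie between them there, at 36.8 to 60.2.

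The smallest p among regions belonged to the one over the GLCCI1 start, chr7:7968243-7969476, whose core promoter is printed above. It stood at percentiles 96.1 and 96.2 in the H2A.Z.1 lists and 5.09 and 13.8 in the H2A.Z.2 lists. The difference was −3.43 ± 0.58 (SE; limma adjusted p = 0.143). Before confluence the H2A.Z.1 lists were apart, at 31.7 and 88.7, and the H2A.Z.2 lists stood at 18.0 and 41.6. Its summits were also apart, without a test. Relative to the start, with upstream positions negative, they lay at 175 and 155 bp in the postconfluent H2A.Z.1 lists and at −341 and −339 bp in the H2A.Z.2 lists. The subconfluent H2A.Z.1 list of percentile 88.7 had its summit at 172 bp, and the 3 other subconfluent lists at −314 to −365 bp. These summits were looked at after the ranks were seen. The strongest interval within 1 kb of the start in the H2A.Z.2 lists was a neighbouring one, at percentiles 63.7 and 83.0, so GLCCI1 was not among the genes above. Among the 10 regions of smallest p in each direction were also those at SESN3, LSM4 and ESRRA, higher in both H2A.Z.2 lists, and at EN2, a homeobox gene, higher in both H2A.Z.1 lists (82.1 and 78.3 against 45.1 and 5.08), with limma adjusted p = 1 for each. Some lay between genes. Those higher in both H2A.Z.2 lists were chr22:49368419-49370016, chr11:95435942-95436399 and chr20:48123069-48127046, and those higher in both H2A.Z.1 lists were chr20:44677889-44679438, chr18:13135845-13139246 and chr7:20798152-20799261.

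Summits of the 4 lists had the same arrangement around gene starts. In each list they formed a peak upstream, in the 50 bp bin centred on −325 or −275 bp, and a higher one downstream, in the bin centred on 125 or 175 bp. Few lay over the start itself: the bin centred on −25 bp held 1.32% and 1.07% of genes in the H2A.Z.1 lists and 1.22% and 1.11% in the H2A.Z.2 lists. For the 7881 genes with a summit within 1 kb of the RefSeq start in all 8 lists, the summit was downstream of the start in 48.2% (Exp1) and 54.5% (Exp2) for H2A.Z.1 and in 46.5% and 50.1% for H2A.Z.2. The H2A.Z.2 share was lower within each experiment, but the groups overlap. Before confluence the shares were 46.1% and 50.8% for H2A.Z.1 and 43.4% and 45.4% for H2A.Z.2. Over the 4 lists of each isoform the means were 49.9% ± 3.62 and 46.4% ± 2.81 (SD, n = 4; exact 2-sided permutation p = 0.171, adjusted p = 0.25 over 5 list measures).

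**Figure D4:**
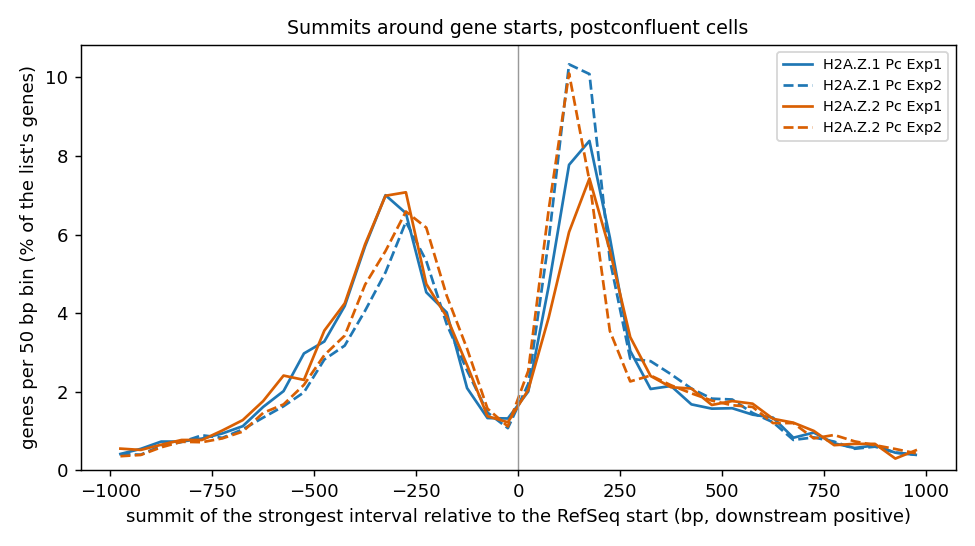
Share of a list's genes (y axis, % per 50 bp bin) by the position of the strongest interval's summit relative to the RefSeq start (x axis, bp, downstream positive) in the 4 postconfluent lists; blue is H2A.Z.1, orange H2A.Z.2, solid Exp1 and dashed Exp2. All 4 lines have a peak on either side of the start, and the downstream peak is higher in the Exp2 lists (10.3% and 10.1% of genes) than in the Exp1 lists (8.39% and 7.43%).

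Summits were as far apart between replicates as between isoforms. Over 14682 regions with 1 interval in each of the 4 lists, the median distance was 57 bp between the H2A.Z.1 lists and 62 bp between the H2A.Z.2 lists. Between isoforms it was 50 to 64 bp, and the smallest value belonged to the 2 Exp2 lists of 1 sequencing run. Distances over 300 bp were found at 11.6% and 11.7% of regions within an isoform and at 10.1% to 12.5% between isoforms.

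A small number of regions had summits that were alike within an isoform and apart between isoforms. limma called 32 of 10105 regions with 1 interval in each of the 8 lists (0.317% at an adjusted p of 0.05), and 389 (3.85%) had an unadjusted p under 0.05. The shifts of the 32 ran from 311.5 to 948.5 bp with a median of 521.25 bp, against a median of 42.5 bp over all 10105. Shifts over 300 bp were found at 408 (4.04%) of the 10105. Across all 10105 regions the shifts of Exp1 and Exp2 correlated at −0.01, with the same sign in 49.1%. Of the 32, 17 lay near a RefSeq start, and at 15 of these the H2A.Z.1 and H2A.Z.2 summits were on opposite sides of the start. H2A.Z.2 had the more upstream summit at 12 of the 17 and the more downstream one at 5. Summits in these lists peak on either side of the start, so the choice of large shifts favours opposite sides. No such counts over all tested regions near a start are given, and these describe the called regions only. The count depends on the lists used: it was 4 without the H2A.Z.1 Exp2 list, 7 without the H2A.Z.2 Exp2 list, 28 without the H2A.Z.2 Exp1 list, 66 without the H2A.Z.1 Exp1 list, and 0 when the sequencing run was a term of the model or when only the 4 postconfluent lists were fitted. The regions called changed too: of the 32, 12 still passed without the H2A.Z.1 Exp1 list, 6 without the H2A.Z.2 Exp1 list and 2 without the Exp2 list of H2A.Z.1 or, in a separate fit, of H2A.Z.2.

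The largest shift was at SLC19A2, whose promoter is printed above. Its H2A.Z.1 summits lay at 605 and 644 bp from the start, positive being downstream, and its H2A.Z.2 summits at −351 and −297 bp, a shift of 948.5 bp (limma adjusted p = 0.00326). All 4 subconfluent summits, of both isoforms, lay at −235 to −278 bp, beside those of postconfluent H2A.Z.2. At C21orf91 it was H2A.Z.2 that stood apart after confluence, with summits at 548 and 550 bp against −306 and −268 bp for H2A.Z.1 (limma adjusted p = 0.00326). Its 4 subconfluent summits lay at −289 to −334 bp.

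At PCNP, also printed above, the isoforms were apart in both growth states. H2A.Z.1 summits lay at 275 and 344 bp after confluence and at 246 and 222 bp before it. H2A.Z.2 summits lay at −280 and −238 bp after confluence and at −278 and −259 bp before it (limma adjusted p = 0.0260 for the postconfluent shift). A region between genes, chr7:20798152-20799261, was alike in this, with a postconfluent shift of 542.5 bp (limma adjusted p = 0.0295). It also had one of the 10 smallest p for rank in its direction, at percentiles 69.6 and 89.3 in the H2A.Z.1 lists and 31.8 and 17.9 in the H2A.Z.2 lists. VASH2, which encodes vasohibin-2, had H2A.Z.1 summits at 299, 312, 333 and 432 bp and H2A.Z.2 summits at −167, −150, −156 and −205 bp over both states. VASH2 was chosen for mention after its values were seen.

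DAAM1, a formin gene, had H2A.Z.1 summits at 136 and 202 bp and H2A.Z.2 summits at −415 and −353 bp (limma adjusted p = 0.0260), and its subconfluent summits were all at −352 to −403 bp. FAM89A had all summits upstream, at −752 and −751 bp for H2A.Z.1 and −304 and −244 bp for H2A.Z.2. CSTF2, a gene of mRNA 3′ end processing, had H2A.Z.1 summits at −476 and −634 bp and H2A.Z.2 summits at 134 and 102 bp, and its subconfluent summits, at −215 to −296 bp, lay with neither. CCDC93 had summits at 192 and 135 bp against −351 and −429 bp. The region at EPG5, an autophagy gene, had a shift of −461.5 bp in genome coordinates.

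At the interval shared by ARFIP1 and TIGD4, whose rank is given above, H2A.Z.1 summits lay at 156 and 137 bp from the ARFIP1 start and H2A.Z.2 summits at −381 and −374 bp (limma adjusted p = 0.0295). There too the 4 subconfluent summits were upstream, at −321 to −448 bp.

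**Figure D5:**
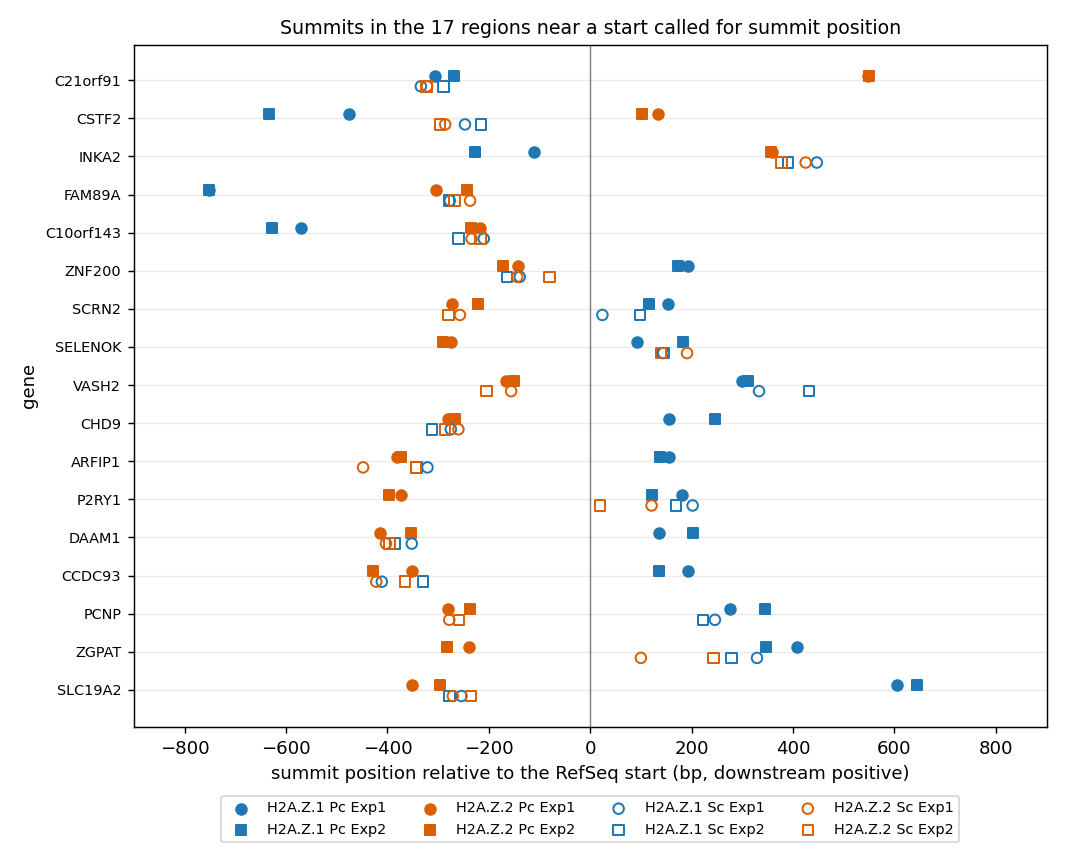
Summit position relative to the RefSeq start (x axis, bp, downstream positive) in all 8 lists at the 17 called regions near a start (y axis, nearest gene); blue is H2A.Z.1, orange H2A.Z.2, filled postconfluent, open subconfluent, circles Exp1 and squares Exp2. Filled blue and orange points lie on opposite sides of the start at 15 of 17 genes, which the choice of large shifts favours. The open points differ from gene to gene, lying with H2A.Z.2 at SLC19A2, with H2A.Z.1 at C21orf91 and with neither at CSTF2.

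Before confluence most of these regions did not show the shift. The subconfluent isoform difference was within 50 bp at 18 of the 32 and over 50% of the postconfluent shift, in the same direction, at 7. All 4 subconfluent summits were nearer to the postconfluent H2A.Z.2 position at 13 regions and nearer to the H2A.Z.1 position at 9. At 7 regions each isoform's subconfluent summits were nearer to that isoform's own postconfluent position, and at 2 they were exchanged. The test of the difference between growth states, which was added after these values were seen, passed at 4 of the 32 regions, among them SLC19A2 and C21orf91 (limma adjusted p = 0.021 for both). It passed at 8 of all 10105 regions. The 32 were chosen by their postconfluent differences, which favours a smaller difference before confluence. The test of growth state reuses those postconfluent values, so its 4 passes among the 32 are not independent of that choice.

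Genes of known function were read from 20 lists holding 519 genes. Of these, 379 were occupied in at least 1 postconfluent list, 3 (0.792%) were H2A.Z.2-only and 5 (1.32%) H2A.Z.1-only, against 0.205% and 0.694% of all occupied genes. The H2A.Z.2-only members included EBP and the transcription factor gene GATA4. The H2A.Z.1-only members were TFCP2L1, the actin-bundling gene FSCN1, the zinc transporter gene SLC39A4, the antithrombin gene SERPINC1 and LUM. Percentiles were low at some of them, for example 15.2 and 12.7 for GATA4 and 6.95 and 4.66 for TFCP2L1. None of the 8 kept the pattern in whole lists.

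Of the 287 list members ranked in all 8 lists, limma called 0, against 0 of all 10735 genes, and 10 (3.48%) had an unadjusted p under 0.05, against 3.42%. Genes of intestinal function were divided. The score was higher in H2A.Z.2 for 6 of 10 ranked brush border genes (median 0.12), 11 of 18 tight junction and polarity genes (0.24), 9 of 15 genes of lipid absorption (0.31; 7 of 15 in Exp1 and 10 of 15 in Exp2), 6 of 11 transporters (0.02) and 6 of 12 intestinal transcription factors (0.04). Over all genes it was higher for 50.8%, with a median of 0.01. Brush border genes ran from −0.58 (CDHR2, a cadherin of microvilli) to 1.80 (ESPN) and transporters from −0.41 (SLC46A1, of folate uptake) to 0.61 (SLC16A1, of lactate transport). HNF4A, a nuclear receptor of enterocyte differentiation, stood at percentiles 82.6 and 74.0 in the H2A.Z.1 lists and 92.9 and 93.9 in the H2A.Z.2 lists. The claudin gene CLDN3 stood at 38.5 and 37.3 against 72.8 and 66.2, and CLDN12 at 74.4 and 66.3 against 42.9 and 51.4. SOX9, a factor of crypt progenitors, had the lowest score difference of its list, −0.90, and APOA1, an apolipoprotein gene, the highest of its list, 0.71 (SOAT2 the lowest, −0.50), from percentiles of 0.503 and 0.376 against 1.25 and 11.3.

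Proliferation and metabolic genes were also divided. The score was higher in H2A.Z.2 for 10 of 30 cell cycle genes (median −0.24), with POLA1, of DNA polymerase alpha, at −1.11 and PCNA at 0.98. In Exp1 this held for 9 of 30 and in Exp2 for 16 of 30. Among hypoxia and glycolysis genes it was higher for 16 of 20 (median 0.22), but for 10 of 20 in each experiment alone. HIF1A, the oxygen-regulated transcription factor gene of that list, stood at 67.4 and 71.4 against 90.7 and 93.6, and the glycolytic gene ALDOA at 56.9 and 89.8 against 37.6 and 68.1. Ribosomal protein genes were higher for 10 of 26 (median −0.10), 8 in Exp1 and 19 in Exp2, and ran from −0.73 (RPL3) to 1.20 (RPLP0). In cholesterol synthesis (7 of 12, median 0.15), IDI1 was at −1.27 and SC5D at 1.25. Growth arrest genes were higher for 5 of 11, with CDKN2C, a CDK inhibitor gene, at 1.24 and CDKN1A, the p21 gene, at −0.73.

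The other lists had medians near 0 or few ranked members. Medians were −0.05 for 18 Wnt target and stem cell genes (EPHB2 −1.08, NOTUM 0.78), −0.06 for 20 Notch pathway genes (DLL1 highest, 0.81) and −0.02 for 27 HOX genes (HOXA3 −0.98, HOXB9 0.73). Markers of other cell types were occupied in all 4 lists in fewer cases than the 55.9% of all genes, in 1 of 24 neuronal and muscle genes, 4 of 29 secretory and tuft cell genes, 5 of 24 blood genes, 7 of 24 liver plasma protein genes and 8 of 24 fibroblast genes. Their ranked members were 1 (TUBB3, 0.19), 4 (GFI1 0.43, SH2D6 −0.64), 4 (CD8A 1.17, NCAM1 −0.36), 6 (F2 1.12, RBP4 −0.70) and 7 (COL5A1 0.57, ZEB1 −1.15). The median of the 4 blood genes, 0.84, was the highest of any list.

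The genes that handle H2A.Z were occupied by both isoforms. All 26 genes of its deposition and removal had an interval in all 4 lists, against 55.9% of all genes, and the score was higher in H2A.Z.2 for 10 of 26 (median −0.08). INO80, the ATPase of the remodeller that removes H2A.Z, stood at 50.4 and 38.5 against 65.7 and 71.5, and TRRAP, a subunit of the EP400 complex, at 73.8 and 91.7 against 66.5 and 67.8. Among variant histone genes (4 of 9, median −0.05) H2AX was at −0.42 and H2AJ at 0.54. The tagged genes lay near or above the median ranked gene, which stood at percentiles 78.3 and 77.8 in the H2A.Z.1 lists and 77.5 and 79.0 in the H2A.Z.2 lists. H2AZ1 stood at 92.9 and 75.9 in the H2A.Z.1 lists and 93.9 and 82.7 in the H2A.Z.2 lists, a difference of 0.20 ± 0.53 (SE). H2AZ2 stood at 97.6 and 80.0 against 89.8 and 90.2, a difference of −0.15 ± 0.55 (SE). Both differences were smaller than their errors, and that of H2AZ2 had opposite signs in the 2 experiments (−0.86 in Exp1 and 0.56 in Exp2).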

How the data were processed

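ChIP-seq reads were single-end reads of 85 bp, per the labels' protocols. The submitters' processing notes name hg38, BWA and deepTools; the peak caller, its control and the role of the spike-in were not given in the sources used here. Each sample's deposited file is a list of intervals. The authors' fold enrichment is a ratio (fold), and the deposited −log10 p-values and −log10 q-values are on a −log10 scale; the score column of the deposited lists was not used. All were used only within a list. Depth is unknown, and an unlisted place may hold signal below the authors' threshold.

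Only intervals of the assembled chromosomes were kept, 30603 of them from each list. Regions are the merged union of the 8 cut lists (1 bp overlap). Gene positions were RefSeq starts for 15841 genes of GRCh38.p14 and, for 4192 without one, whichever annotated end had the higher percentile on average over the 8 lists; windows were 1 kb either side. Normal scores of rank, log2 of covered bases (centred per list) and summit positions were compared in linear models (limma 3.58.1 under R 4.3.3). Each model had 4 group means over the 8 lists, with Benjamini-Hochberg adjustment over all features at 0.05. Only the fit of region ranks was tried on simulated data, as normal scores. The width and summit fits were not. List measures were compared with exact permutation tests (scipy 1.17.1). Alternatives were other list lengths, windows and merging, ranking by −log10 p, a replicate block, a sequencing run term, the 4 postconfluent lists alone, single experiments and leaving out each list.

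Named genes are the 10 isoform-only genes of highest mean percentile per isoform, those keeping the pattern at 3 other list lengths, isoform-only members of the lists, the 10 features of smallest p in each direction for rank and the 5 for width and summit, the extremes of each list, and H2AZ1 and H2AZ2. The members and lists were chosen with earlier results of these data known. Of the 17 samples, the other 9 have no list analysed here. Some items that this rule names are not reported here.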

Additional observations from a re-analysis of the deposited data

Results flagged for a closer look

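At 4 genes the isoform pattern after confluence was the opposite of the pattern before it. They were 3 of the 26 H2A.Z.2-only genes and 1 of the 88 H2A.Z.1-only genes. The same pattern was present before confluence at 1 and 10 genes, and the other isoform had at least 1 interval then at 21 and 60. MROH6 and NAPRT share an interval that stood in both H2A.Z.2 lists and neither H2A.Z.1 list after confluence, at a mean percentile of 52.3, and in both H2A.Z.1 lists and neither H2A.Z.2 list before confluence, at 34.4 and 52.4. SERPINC1 had an interval in both H2A.Z.1 lists alone after confluence, at a mean percentile of 21.9, and in both H2A.Z.2 lists alone before it, at 31.6 and 14.9. KRT19, an epithelial keratin gene, had an interval in both H2A.Z.2 lists alone after confluence, at 23.2 and 8.49, and in both H2A.Z.1 lists alone before it, at 2.68 and 15.1. The difference between growth states was not tested at these genes, and the whole postconfluent lists of the other isoform held an interval at all 4.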

How the results depend on the processing

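Counts of features in 1 isoform followed the list length. For H2A.Z.2-only regions (319) they were 87 in whole lists and 778 at equal covered length; for H2A.Z.1-only regions (1085) they were 6976 in whole lists, 1641 at the length of the shortest postconfluent list, 403 at 15301 intervals and 116 at equal covered length. H2A.Z.2-only genes (26) numbered 0 in whole lists, 13 at the shortest postconfluent length, 91 at 15301 intervals, 278 at equal covered length and 56 when the summit had to lie within 1 kb. H2A.Z.1-only genes (88) numbered 219 in whole lists and 29 at equal covered length. Leaving out each list gave 891 to 2702 H2A.Z.2-only and 2377 to 4315 H2A.Z.1-only regions, and 106 to 150 and 172 to 318 genes; these rise because fewer lists are required. So do the counts of 1 experiment alone, an alternative chosen after seeing the data: 4122 and 6704 regions and 342 and 484 genes (H2A.Z.2-only and H2A.Z.1-only) in Exp2, which is 1 sequencing run, and 4093 and 5380 regions and 270 and 478 genes in Exp1. The width difference of −176.5 bp was 36 bp in whole lists and −260.5 bp at equal covered length.

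With a replicate block, 1 region (GLCCI1, limma adjusted p = 0.022; 0.022 to 1 over its 7 alternatives) passed for rank and 2 for summit position, and 0 for gene rank and for width, as without it. The numbers do not pair the samples: deviations of the postconfluent lists of the same number correlated at 0.03 for region scores, and not every pair of groups was over 0.1. Width calls (0) were 2 at 15301 intervals and 1 at equal covered length. Summit calls (32) were 14 in whole lists, 21 at equal covered length, 0 with a sequencing run term (added after seeing the data), 0 with the 4 postconfluent lists only and 4 to 66 with each list left out. Direction was kept in every alternative fit that gave a value. This held for the 20 genes and 20 regions of smallest p for rank, the 10 for width and the 32 summit calls. Their choice by p from the same lists favours it. Other list lengths were fitted for the 20 genes alone, 13 of which had a value at 15301 intervals and at equal covered length. Over these fits, most summit values no longer passed. With the replicate block this was so for 30 of the 32 summit calls, and with the sequencing run term for all 32. Single experiments were not among these fits, and some list members had opposite signs in Exp1 and Exp2. Precision is limited by 2 lists per group.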
